A study of Mus musculus with 6 samples.

Results

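Genes that restrain NF-κB were examined in RNA-seq of MLE12 cells, an immortalized mouse lung epithelial line, in which Idh3α and Slc25a1 were silenced together. The genes were the inhibitors of NF-κB (the IκB family: Nfkbia, Nfkbib, Nfkbie, Nfkbid, Nfkbiz and Bcl3), A20 (Tnfaip3) with its binding partners Tnip1 and Tnip2, and the deubiquitinase gene Cyld. They were matched by gene name, which found 10 of the 54532 genes in the count table, and all 10 passed the filter on low counts together with 15307 genes in all. This gene family was selected on the strength of its difference between the same groups of libraries, so the fold changes of the 10 genes are given below as a description, without p-values.

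The 3 control libraries came from cells given a lentivirus with Ctrl shRNA, and the 3 knockdown libraries from cells given a lentivirus with Idh3α shRNA and one with Slc25a1 shRNA. Idh3α encodes the catalytic subunit of a mitochondrial isocitrate dehydrogenase and Slc25a1 the mitochondrial citrate carrier, and the study silenced both to make citrate accumulate in mitochondria. Each virus was used at an MOI of 50, so the knockdown cells received more virus in total than a culture given 1 virus at that dose, and virus load and knockdown cannot be told apart. The medium was replaced after 16 h and culture went on for 80 h, with no LPS named in the labels of these samples. The cells are labelled with the strain C57BL/6J, and all libraries are of this 1 line. The labels do not say whether the replicates were separate cultures, so the p-values given for other genes measure only the spread between these samples, which may be technical.

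NF-κB is a family of dimeric transcription factors that drive inflammatory and survival genes. In resting cells the classical IκB proteins hold the dimers in the cytoplasm. Signals from cytokine and pattern recognition receptors pass through ubiquitin chains to the IκB kinase complex, which marks the IκB proteins for destruction. Several inhibitors are themselves transcribed by NF-κB, so that the pathway restrains itself, and in the airway and alveolar epithelium this circuit limits the response to TNF, interleukin-1 and bacterial products.

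Ctrl shRNA replicate 2 stood apart from the other 5 libraries. Totals ran from 27273502 to 28535653 counts, but this library had a count in 16681 genes against 19902 to 23147 in the others, and its 100 most abundant genes held 27.2% of its counts against 12.6% to 12.9%. Its share of mitochondrially encoded counts was 6.49%, against 1.57% to 1.80% in the other 5 libraries. Results are therefore given with and without it. Idh3a, the mouse symbol of Idh3α, was measured at 79.8, 137 and 93.0 CPM (counts scaled to the size of the library) in Ctrl shRNA and at 58.5, 57.9 and 55.5 CPM in knockdown, and no knockdown value of Idh3a or Slc25a1 reached a Ctrl value. In the edgeR fit the log2 fold change was -0.85 for Idh3a (adjusted p = 0.254) and -0.62 for Slc25a1 (adjusted p = 0.104), and without Ctrl shRNA replicate 2 it was -0.60 (adjusted p = 0.0142) and -0.66 (adjusted p = 0.00649). Of the defining lung epithelial markers, Nkx2-1 averaged 336 CPM in Ctrl shRNA, while Sftpd was at 0 and Sftpa1 had 2 counts in all. Nkx2-1, a regulator of lung epithelial identity, was at 343, 324 and 341 CPM in Ctrl shRNA and at 302, 299 and 277 CPM in knockdown, with a log2 fold change of -0.20 (edgeR adjusted p = 0.353, and 0.128 without Ctrl shRNA replicate 2). Sftpc, the surfactant protein C gene, was at 44.1, 97.3 and 50.9 CPM in Ctrl shRNA and at 35.9, 28.51 and 27.2 CPM in knockdown, with a log2 fold change of -1.07 (edgeR adjusted p = 0.315) and of -0.65 without Ctrl shRNA replicate 2 (adjusted p = 0.0438). Every knockdown library lay below every Ctrl library for Sftpc, Nkx2-1 and Epcam, and above for Cdh1, which had a log2 fold change of 0.14 (edgeR adjusted p = 0.393). Krt8, Krt19 and Sftpb overlapped between the groups, and Krt19 lay above in knockdown without Ctrl shRNA replicate 2 (log2 fold change 0.22). The part of these markers in the results was not tested. The summed lung epithelial list, most of it Krt19, Nkx2-1 and Krt8, lay at 1441 to 1580 CPM in Ctrl shRNA and 1514 to 1635 CPM in knockdown. The leukocyte list summed to 5.49 to 10.1 and 6.86 to 7.42 CPM, with Ptprc, Adgre1 and Itgam at 0 in every library. Of that list, Cd68 was at 1.65, 1.92 and 1.78 CPM in Ctrl shRNA and at 2.52, 2.34 and 2.73 CPM in knockdown. Its log2 fold change was 0.51 (edgeR adjusted p = 0.352). Cd14 overlapped between the groups and was highest in Ctrl shRNA replicate 2, at 8.15 CPM. The endothelial list summed to 36.7 to 45.8 CPM in Ctrl shRNA and 31.9 to 33.3 CPM in knockdown, most of it Tek, with a log2 fold change of -0.32 (edgeR adjusted p = 0.339) and every knockdown library below every Ctrl library. The fibroblast list reached 1233 CPM in Ctrl shRNA replicate 2, against 346 CPM in the lowest Ctrl library and 317 to 345 CPM in knockdown. Most of it was Dcn, at 320, 1211 and 354 CPM in Ctrl shRNA and at 297, 318 and 300 CPM in knockdown. Col1a1 overlapped between the groups. Pdgfra lay above in every knockdown library, with a log2 fold change of 0.63 (edgeR adjusted p = 0.312). The part of these lists in the results was not tested.

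Promoter sequence is shown first, since many feedback inhibitors are known to carry NF-κB binding sites near their starts. The kappa B consensus (GGG, a purine, any base, A or T, a pair of pyrimidines, then CC, on either strand, overlapping matches counted) was searched in RefSeq windows of 300 bases on GRCm38.p6, from 250 bases before to 50 bases after each transcription start. Windows were given for 9 of the 10 genes, all but Nfkbiz. A match lay in a window of 7 of these 9 genes (77.8%), against 1388 of all 27025 gene symbols with a window (5.14%) and 21 of 71 other NF-κB pathway genes (29.6%). Among single windows the share was 1480 of 32851 (4.51%). The windows with a match held 56.7% to 69.0% G and C, against a median of 52.7% over all windows. A match is a run of letters, not a measured binding site.

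The 250 bases upstream of the starts of Nfkbia and Tnfaip3 are printed whole, 5′ to 3′ on the strand of the gene, because these genes encode the best known feedback inhibitors and had the highest level per kilobase and the second largest fold change of the 10, in that order. Capitals mark matches to the consensus. The Nfkbia stretch is chr12:55492648-55492897 on the minus strand and the Tnfaip3 stretch is chr10:19015411-19015660 on the minus strand. Tnfaip3 has 2 RefSeq starts, and the window of the other, chr10:19011914-19012213, held no match. The printed Tnfaip3 stretch lies almost wholly within the gene span of the count table, which ends at 19015657.
Nfkbia: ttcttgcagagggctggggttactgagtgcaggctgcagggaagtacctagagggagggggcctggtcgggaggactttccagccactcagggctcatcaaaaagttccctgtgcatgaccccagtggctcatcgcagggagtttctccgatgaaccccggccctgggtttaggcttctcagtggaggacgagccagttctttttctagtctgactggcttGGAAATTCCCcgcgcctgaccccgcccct
Tnfaip3: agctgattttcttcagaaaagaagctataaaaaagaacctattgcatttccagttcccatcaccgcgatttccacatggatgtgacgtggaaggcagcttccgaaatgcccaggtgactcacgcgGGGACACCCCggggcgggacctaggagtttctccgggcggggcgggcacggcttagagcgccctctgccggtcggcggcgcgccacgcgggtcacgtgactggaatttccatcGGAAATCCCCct

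For the other 5 genes with a match, the 30 bases around it are shown, again on the strand of the gene with the match in capitals. They lay at chr17:45555584-45555613 (plus, Nfkbie), chr7:30422170-30422199 and chr7:30422215-30422244 (plus, Nfkbid), chr7:19822734-19822763 (minus, Bcl3), chr11:54962978-54963007 (minus, Tnip1) and chr8:88696863-88696892 (plus, Cyld). In Tnip1, 4 overlapping matches at 3 positions make a run of 12 bases, and those of Nfkbid lay before 1 of its 3 RefSeq starts, within the gene span of the count table.
Nfkbie: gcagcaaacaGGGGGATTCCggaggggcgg
Nfkbid, first match: gccccgccctGGGACTTCCCagagcaccac
Nfkbid, second match: gggccgaacaGGAATTCCCCgtgcgcgggg
Bcl3: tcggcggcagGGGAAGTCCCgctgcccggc
Tnip1: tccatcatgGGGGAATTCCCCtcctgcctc
Cyld: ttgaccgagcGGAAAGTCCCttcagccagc

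Counting the first transcribed base as position 1, the Nfkbia match ran from -29 to -20 and the Tnfaip3 matches from -125 to -116 and from -12 to -3. In Bcl3 the match lay after the start, at 3 to 12. Those of the other genes lay between -226 and -47. No window of Nfkbib or Tnip2 held these letters.

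**Figure D1:**
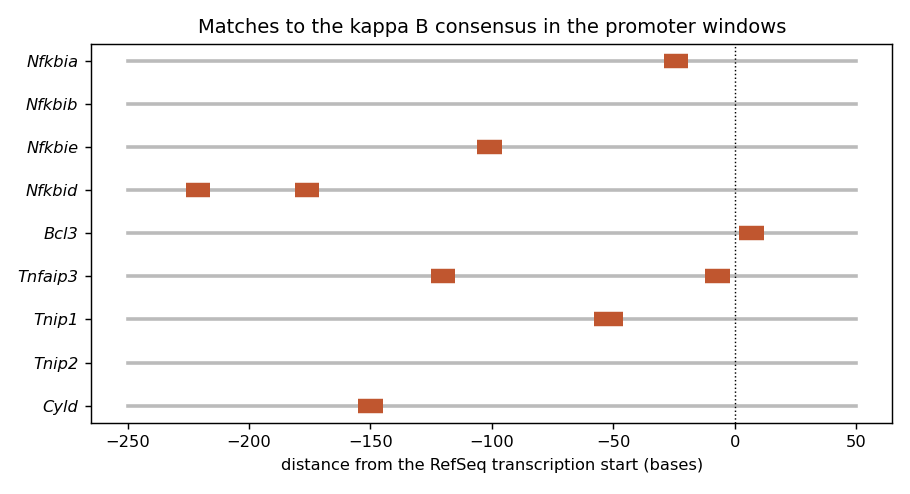
Position of matches to the kappa B consensus in 1 RefSeq promoter window of each gene. The x axis is the distance from the transcription start in bases, the line is the window and each mark is a match. Matches are seen in 7 of the 9 genes with a window, at -226 to 12.

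Levels of all 10 genes were on average higher in the knockdown libraries. The median log2 fold change of the 10 was 1.00 with all 6 libraries and 0.97 without Ctrl shRNA replicate 2, while the median of all 15307 genes was -0.01, with 7460 genes above 0 and 7847 below. Every knockdown library lay above every Ctrl library in 8 of the 10 genes, beside 14.7% of all genes tested, and every knockdown library lay below in 0 of the 10, beside 10.7%. As these genes were chosen on this contrast, nothing is read from the counts. The values were measured in bulk RNA, in which fewer cells of a type and less RNA per cell cannot be told apart.

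**Figure D2:**
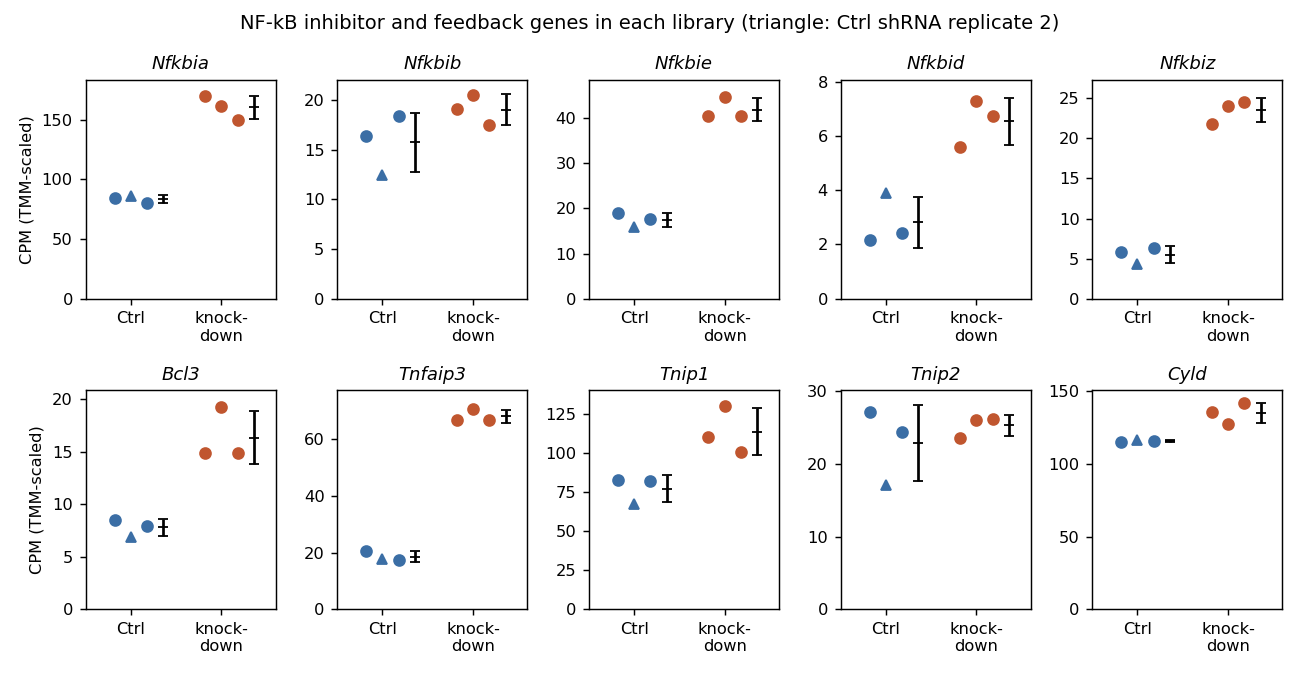
Level of each gene in CPM (y axis, from 0) in the 3 Ctrl shRNA and 3 knockdown libraries. Each point is a library, the bars are group means and the triangle is Ctrl shRNA replicate 2. The groups overlap in Nfkbib and Tnip2 and are apart in the other 8 genes.

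Among the classical IκB proteins, Nfkbia encodes IκBα, which retains NF-κB in the cytoplasm and is rapidly remade after each round of signaling. Nfkbia (ENSMUSG00000021025, chromosome 12, 55489410 to 55492647 on GRCm38, minus strand) was at 84.6, 85.7 and 79.8 CPM in Ctrl shRNA and at 170, 161 and 150.0 CPM in knockdown. All knockdown values lay far above the Ctrl values, and Ctrl shRNA replicate 2 lay with the other Ctrl libraries. The means were 83.4 ± 3.14 and 160.3 ± 9.80 CPM (SD, n = 3 each), a 1.92-fold difference. The log2 fold change was 0.94 (SE 0.08), and between 0.90 and 0.99 with any single library left out.

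Nfkbie encodes IκBε, a slower classical inhibitor that is also an NF-κB target. Nfkbie (ENSMUSG00000023947, chromosome 17, 45555703 to 45563169, plus strand) was at 18.9, 15.8 and 17.6 CPM in Ctrl shRNA and at 40.4, 44.7 and 40.4 CPM in knockdown, and the groups were well apart. Its mean went from 17.4 ± 1.56 to 41.8 ± 2.49 CPM, 2.40-fold, with a log2 fold change of 1.26 (SE 0.10) and of 1.19 (SE 0.09) without Ctrl shRNA replicate 2.

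Nfkbib encodes IκBβ, a classical inhibitor whose gene is less tied to NF-κB feedback. Its levels (ENSMUSG00000030595, chromosome 7, 28758251 to 28767512, minus strand) were 16.3, 12.5 and 18.4 CPM in Ctrl shRNA and 19.1, 20.6 and 17.5 CPM in knockdown. The lowest knockdown library lay below the highest Ctrl library, and the lowest of all was Ctrl shRNA replicate 2. The log2 fold change was 0.27 (SE 0.16), and 0.12 (SE 0.11) without that library. Nfkbib shares 42 exon bases with Sirt2 on the opposite strand, and Sirt2 averaged 3191 counts against 499 for Nfkbib. Whether reads were counted by strand is not given in the sources used here, so this value is uncertain.

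Per gene length, Nfkbia made up most of the transcripts of the classical family in both groups. Its share of the summed CPM per kilobase of the 3 classical genes was 80.0% ± 2.71 in Ctrl shRNA and 81.5% ± 1.06 in knockdown (SD, n = 3 each). That of Nfkbib was 11.4%, 8.98% and 13.3% in Ctrl shRNA and 6.92%, 7.62% and 7.03% in knockdown, so all knockdown values were lower. That of Nfkbie was 9.36%, 8.08% and 9.06% in Ctrl shRNA and 10.4%, 11.8% and 11.6% in knockdown, so all were higher. The sum itself went from 64.8 ± 1.34 to 122.1 ± 6.74 CPM per kilobase. By share, the makeup of the family thus moved from Nfkbib toward Nfkbie while Nfkbia stayed dominant. The mean level of Nfkbib itself was 7.26 CPM per kilobase in Ctrl shRNA and 8.78 in knockdown, with overlapping groups. Its share is as uncertain as its value, given the overlap with Sirt2.

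The nuclear, or atypical, IκB proteins act on NF-κB dimers at DNA, either holding transcription back or assisting it according to the target. Nfkbiz encodes IκBζ, which is needed for induction of a group of secondary response genes and is known to protect epithelial barriers. Nfkbiz (ENSMUSG00000035356, chromosome 16, 55811375 to 55838899, minus strand) was at 5.88, 4.30 and 6.31 CPM in Ctrl shRNA and at 21.8, 24.1 and 24.6 CPM in knockdown. The lowest knockdown library was more than 3 times the highest Ctrl library. The means of 5.50 ± 1.06 and 23.5 ± 1.499 CPM differed 4.26-fold, the largest fold of the 10 genes, with a log2 fold change of 2.09 (SE 0.17) and of 1.94 (SE 0.11) without Ctrl shRNA replicate 2.

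Nfkbid encodes IκBNS, known mainly from lymphocyte development. It was the least abundant of the 10 in CPM, at 2.16, 3.90 and 2.41 CPM in Ctrl shRNA and 5.58, 7.28 and 6.74 CPM in knockdown (ENSMUSG00000036931, chromosome 7, 30421732 to 30428746, plus strand). Here Ctrl shRNA replicate 2 was the highest Ctrl library, and still lay under the knockdown values. These levels rested on 67, 77 and 69 counts against 166, 221 and 200 counts, where counting error alone gives a coefficient of variation of 11.9% in Ctrl shRNA. The fold was 2.33, with a log2 fold change of 1.22 (SE 0.27), and of 1.51 (SE 0.19) without that library.

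Bcl3 encodes a nuclear IκB protein that binds p50 and p52 homodimers. Bcl3 (ENSMUSG00000053175, chromosome 7, 19808462 to 19822770, minus strand) was at 8.50, 6.93 and 7.98 CPM in Ctrl shRNA and at 14.9, 19.2 and 14.9 CPM in knockdown. The groups were apart, and knockdown replicate 2 was the highest library. The mean went from 7.80 ± 0.796 to 16.3 ± 2.52 CPM, 2.09-fold, with log2 fold changes of 1.06 (SE 0.16) and 0.98 (SE 0.15) with and without Ctrl shRNA replicate 2. Bcl3, Nfkbib and Nfkbid lie on the same chromosome, 8.94 Mb and 1.65 Mb apart in that order.

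Summed per kilobase, the nuclear genes held 5.53, 5.32 and 5.51 CPM per kilobase in Ctrl shRNA and 12.7, 15.7 and 13.8 in knockdown. Relative to the classical sum this was 8.33%, 8.29% and 8.63% in Ctrl shRNA and 9.99%, 12.6% and 12.03% in knockdown. Every knockdown library lay above every Ctrl library, although the nuclear genes remained the minor class in both groups.

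A20, the protein of Tnfaip3, edits ubiquitin chains on signaling intermediates and ends signaling to the IκB kinases. Tnfaip3 (ENSMUSG00000019850, chromosome 10, 19000910 to 19015657, minus strand) was at 20.7, 17.7 and 17.4 CPM in Ctrl shRNA and at 66.6, 70.6 and 66.6 CPM in knockdown. Both groups were tight and far apart. The means were 18.6 ± 1.84 and 67.9 ± 2.33 CPM, 3.65-fold apart, with a log2 fold change of 1.87 (SE 0.10) that ran from 1.81 to 1.96 when each library was left out in turn.

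The A20 partners were less different between the groups. Tnip1 encodes ABIN1, a ubiquitin-binding adaptor that brings A20 to its substrates. Tnip1 (ENSMUSG00000020400, chromosome 11, 54910785 to 54962917, minus strand) was at 82.8, 67.3 and 82.3 CPM in Ctrl shRNA and at 110.5, 130.5 and 100.6 CPM in knockdown, apart but with a wide spread in knockdown. The fold was 1.47, with log2 fold changes of 0.56 (SE 0.13), and 0.45 (SE 0.10) without Ctrl shRNA replicate 2.

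Tnip2 encodes ABIN2, which also binds and stabilizes the kinase TPL2. Tnip2 (ENSMUSG00000059866, chromosome 5, 34496087 to 34513991, minus strand) was at 27.2, 17.1 and 24.4 CPM in Ctrl shRNA and at 23.6, 26.1 and 26.2 CPM in knockdown, and the highest library was a Ctrl library. Its log2 fold change was 0.14 (SE 0.18), and -0.04 (SE 0.09) without Ctrl shRNA replicate 2, so its direction rested on that library.

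CYLD removes linear and lysine-63 ubiquitin chains from NF-κB signaling complexes and is a tumor suppressor. Cyld (ENSMUSG00000036712, chromosome 8, 88697028 to 88751945, plus strand) was at 115.1, 116.1 and 115.8 CPM in Ctrl shRNA and at 135, 127 and 141 CPM in knockdown. The Ctrl libraries lay within 1 CPM of their mean and all knockdown libraries lay above them, yet the fold was only 1.16, with log2 fold changes of 0.22 (SE 0.07) and 0.21 (SE 0.07) with and without Ctrl shRNA replicate 2. The ratio of Tnfaip3 to Cyld in CPM per kilobase was 0.313, 0.265 and 0.262 in Ctrl shRNA and 0.855, 0.966 and 0.820 in knockdown. Tnfaip3 transcripts thus came close to those of Cyld in knockdown, where in Ctrl shRNA they were a minority.

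**Figure D3:**
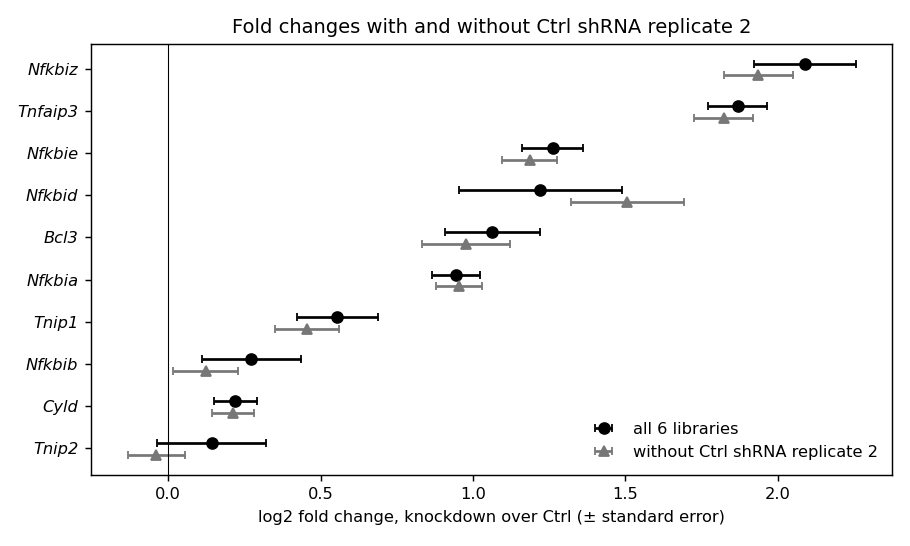
Log2 fold change of each gene, knockdown over Ctrl shRNA (x axis), with all 6 libraries and without Ctrl shRNA replicate 2, with bars of 1 standard error. Values run from 0.14 for Tnip2 to 2.09 for Nfkbiz with all libraries, and Tnip2 is at -0.04 without that library.

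At an adjusted p under 0.05 over all genes, edgeR called Nfkbia, Nfkbie, Nfkbiz and Tnfaip3 higher with all 6 libraries. That is 4 of the 10, beside a background of 0.0588% of genes called higher (9 genes) and 0.00653% called lower (1 gene). It called 0 of the 10 lower, and at an unadjusted p under 0.05 it had 8 higher and 0 lower, beside 7.47% and 6.65% of all genes. Without Ctrl shRNA replicate 2 it called 6 higher, with Nfkbid and Bcl3 added, beside 1.11% of genes called higher and 0.675% lower. DESeq2 on all libraries called 7 higher and 0 lower, with Tnip1 added to those 6, beside 1.69% and 1.18%. Since the genes were picked on this contrast, these counts describe the fit and carry no weight for the family. The edgeR count depended on which libraries were included. It was 1 (Tnfaip3) without Ctrl shRNA replicate 1 and 0 without Ctrl shRNA replicate 3 or without any 1 of the knockdown libraries. All 10 fold changes stayed above 0 in these fits, and Tnip2 alone fell below 0 without Ctrl shRNA replicate 2. Scaled by library size only, edgeR called 0 of the 10, and the median of all genes was then 0.16.

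Within the cells, levels were compared between genes per kilobase of the counted gene length. In Ctrl shRNA the order began with Nfkbia at 51.8 ± 1.95 CPM per kilobase, followed by Tnip1 at 21.9 ± 2.49 and Cyld at 9.19 ± 0.0411 (SD, n = 3). Tnip2 (8.52 ± 1.95), Nfkbib (7.26 ± 1.38) and Nfkbie (5.72 ± 0.512) came next, and Bcl3 (3.15 ± 0.321), Tnfaip3 (2.57 ± 0.254), Nfkbid (1.20 ± 0.400) and Nfkbiz (1.10 ± 0.211) were lowest. Neighbors in this order overlapped between Cyld and Tnip2, Tnip2 and Nfkbib, Nfkbib and Nfkbie, Bcl3 and Tnfaip3, and Nfkbid and Nfkbiz.

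In knockdown Nfkbia at 99.6 ± 6.09 and Tnip1 at 32.2 ± 4.30 CPM per kilobase again led. Nfkbie came next at 13.7 ± 0.819, ahead of Cyld at 10.7 ± 0.564, Tnip2 at 9.42 ± 0.541 and Tnfaip3 at 9.40 ± 0.322. Nfkbib (8.78 ± 0.715), Bcl3 (6.60 ± 1.02), Nfkbiz (4.68 ± 0.299) and Nfkbid (2.79 ± 0.372) followed. Tnfaip3 overlapped with both of its neighbors, Tnip2 and Nfkbib, and the other neighbors did not overlap. By mean level, Nfkbie and Tnfaip3 thus ranked above Nfkbib, the reverse of Ctrl shRNA. Nfkbiz lay above Nfkbid in every knockdown library and in Ctrl shRNA replicates 1 and 3, and below it in Ctrl shRNA replicate 2 alone.

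**Figure D4:**
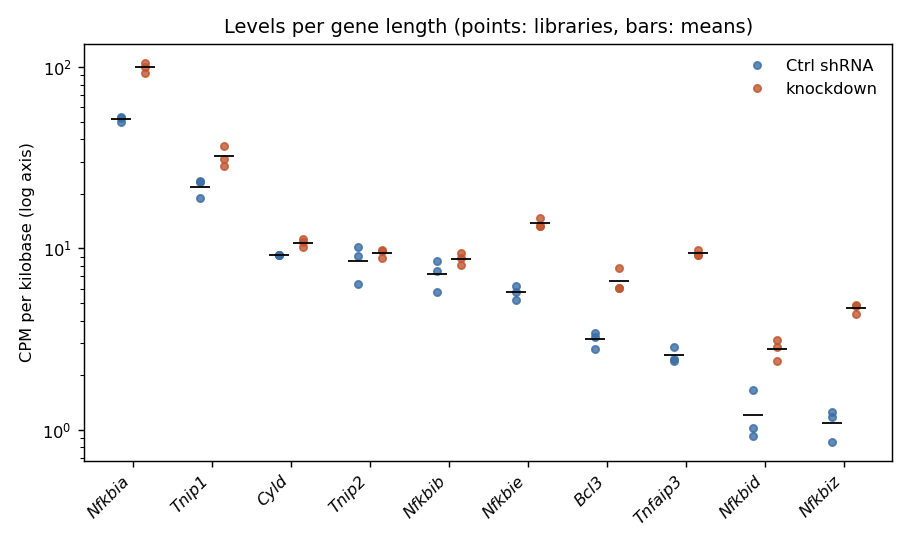
Level of each gene in CPM per kilobase of gene length (y axis, log scale) in the Ctrl shRNA and knockdown libraries. Points are libraries and bars are means. Nfkbia and Tnip1 lead in both groups, and Nfkbie follows in knockdown at 13.7.

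The pattern over the 6 libraries was compared with that of 10688 genes, as the root mean square difference of log2 CPM centered on the mean of each gene. Tnfaip3 and Nfkbiz were each other's nearest gene, at 0.182. Next came Wnt10a (0.270) and Nfkbie (0.308) for Tnfaip3, and Zc3h12a (0.396) and Nfkbie (0.404) for Nfkbiz. For Nfkbia the nearest were Plk2 (0.0844), Psd (0.0904) and Cx3cl1 (0.105). Psd overlaps Nfkb2 by 299 bases on the opposite strand, and reads within that stretch cannot be told apart without strand.

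A list of 91 other genes of the pathway was examined, of which 76 were tested. Of these, 56 had a log2 fold change above 0 and 20 below, with a median of 0.16. edgeR called 1 higher, Csf1, and 0 lower, and had 25 higher and 1 lower at an unadjusted p under 0.05, beside 7.47% and 6.65% of all genes. Without Ctrl shRNA replicate 2 it called 12 higher and 0 lower, beside 1.11% and 0.675%, and DESeq2 called 14 and 0, beside 1.69% and 1.18%. Every knockdown library lay above every Ctrl library in 31 of the 76, beside 14.7% of all genes, and below in 1, Nfkbil1, beside 10.7%.

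The subunits of NF-κB itself were all above 0, 5 of 5 tested, with a median of 0.36. edgeR called 0 of them with all libraries and 2 higher without Ctrl shRNA replicate 2, beside 0.0588% and 1.11% of all genes. At an unadjusted p under 0.05 it had 4 higher, beside 7.47%, and DESeq2 called 3 higher, beside 1.69%. Every knockdown library lay above every Ctrl library in all 5, beside 14.7% of all genes tested. Nfkb2, the precursor of p52, was at 216.7, 188 and 207.5 CPM in Ctrl shRNA and at 350.3, 334 and 329 CPM in knockdown, with a log2 fold change of 0.73 (adjusted p = 0.104 in edgeR, and 0.00582 without Ctrl shRNA replicate 2). Relb, its partner in the noncanonical pathway, had a log2 fold change of 0.73 as well (edgeR adjusted p = 0.144, and 0.0142 without that library). Both sets of groups were apart.

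Kinases upstream of the inhibitors had a median of 0.12 over 13 tested, 12 of them above 0. edgeR called 0 of them with all libraries and 1 higher without Ctrl shRNA replicate 2, beside 0.0588% and 1.11% of all genes called higher. At an unadjusted p under 0.05 it had 5 higher, beside 7.47%, and DESeq2 called 2 higher, beside 1.69%. In 6 of the 13 every knockdown library lay above every Ctrl library, beside 14.7% of all genes tested. Ikbke, an IκB kinase relative that is itself inducible, had a log2 fold change of 0.65 (edgeR adjusted p = 0.174, and 0.0336 without Ctrl shRNA replicate 2). Map3k8, which encodes TPL2, had 0.93 (edgeR adjusted p = 0.245, and 0.0632). Among 11 ubiquitin ligases and TRAF adaptors, with a median of 0.16, edgeR called 0 with or without Ctrl shRNA replicate 2. At an unadjusted p under 0.05, 2 were higher, beside 7.47% of all genes, and DESeq2 called 1 higher, beside 1.69%. Traf1, a TRAF adaptor, and Birc3, which encodes the ubiquitin ligase cIAP2, had log2 fold changes of 1.96 and 0.71 (edgeR adjusted p = 0.357 and 0.258). Traf1 stayed under 2 CPM in every library and had 0 counts in Ctrl shRNA replicate 2. Without that library the log2 fold changes were 1.43 for Traf1 and 0.72 for Birc3 (edgeR adjusted p = 0.0927 and 0.0852).

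Other negative regulators, 14 tested, were evenly split with 7 above and 7 below 0 and a median of -0.02, against a median of 1.00 over the 10 inhibitors and feedback regulators. Without Ctrl shRNA replicate 2 these medians were 0.04 and 0.97, and the difference between them was not tested. Since the 10 genes were chosen on this contrast, nothing is read from the difference. Several of these regulators depended on that library. Tnip3, which encodes the A20-binding protein ABIN3, was at 14.98 CPM there, at 2.58 and 4.57 CPM in the other Ctrl libraries and at 7.49, 7.98 and 6.58 CPM in knockdown. Its log2 fold change was 0.01 with all libraries and 1.03 without it (edgeR adjusted p = 0.0712), and that of Tank went from -0.48 to 0.17. Tnip3 and Tank were named after their values were seen. Zc3h12a, the endonuclease Regnase-1 that degrades cytokine transcripts, was at 5.69, 5.87 and 6.76 CPM in Ctrl shRNA and at 15.4, 18.6 and 14.0 CPM in knockdown. Its log2 fold change was 1.39 (edgeR adjusted p = 0.0935, and 0.00795 without Ctrl shRNA replicate 2). Commd1 was at 56.4 CPM in Ctrl shRNA replicate 2 and between 9.26 and 17.5 CPM in the other 5 libraries, so its log2 fold change of -1.36 (edgeR adjusted p = 0.357) went to -0.39 without that library.

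Receptors and their adaptors had a median of 0.10 over 15 tested. Tlr2, a receptor for bacterial lipoproteins, was at 16.0, 14.0 and 16.7 CPM in Ctrl shRNA and at 28.6, 28.3 and 27.5 CPM in knockdown, with a log2 fold change of 0.85 (edgeR adjusted p = 0.0935, and 0.00656 without Ctrl shRNA replicate 2). Tnfrsf1b, a TNF receptor, had 0.47 (edgeR adjusted p = 0.180, and 0.0403). Of 10 listed ligands 3 were tested, and those with the largest fold changes, Ltb and Tnfsf13b, stayed under 2 CPM in every library, with log2 fold changes of 0.60 and 0.33 (edgeR adjusted p = 0.759 and 0.670). Ltb had 0 counts in Ctrl shRNA replicate 2, and without that library the log2 fold changes were 0.06 for Ltb and 0.36 for Tnfsf13b.

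Transcribed targets of NF-κB had a median of 0.54, with 12 of 15 above 0. Csf1, a macrophage growth factor, rose from 157, 134 and 141 CPM to 319, 321 and 330.1 CPM, a log2 fold change of 1.17 (edgeR adjusted p = 0.0249), and of 1.11 without Ctrl shRNA replicate 2 (adjusted p = 0.000593). With any other single library left out, edgeR called 0 genes of the pathway list, Csf1 included. The chemokine gene Cxcl1 was at 3.52, 10.2 and 5.93 CPM in Ctrl shRNA and at 41.1, 42.8 and 43.4 CPM in knockdown, with a log2 fold change of 2.71 (edgeR adjusted p = 0.111, and 0.00021 without Ctrl shRNA replicate 2). Ccl2 had a log2 fold change of 2.02 (edgeR adjusted p = 0.296), and of 2.92 without that library (adjusted p = 0.00021).

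Ctrl shRNA replicate 2 was the highest Ctrl library for Cxcl1, Ccl2 and Cxcl10, and among the 10 inhibitors and feedback regulators only for Nfkbid, Nfkbia and Cyld, the last 2 by small margins. Cxcl10 had a log2 fold change of 0.70 (edgeR adjusted p = 0.440), and 1.35 without that library (adjusted p = 0.0142). Irf1 had 0.68 (edgeR adjusted p = 0.179, and 0.0115) and Vcam1 0.32 (edgeR adjusted p = 0.330, and 0.0276). The log2 fold changes of Tnfaip3 (1.87) and Nfkbiz (2.09) lay between those of Cxcl10 and Cxcl1. Over all 15 tested targets the values ran from -0.95 to 3.28, with 3 below 0, so Cxcl1 was not the highest. The lowest, Il6, was at 0.24 without Ctrl shRNA replicate 2 and was named after its values were seen.

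**Figure D5:**
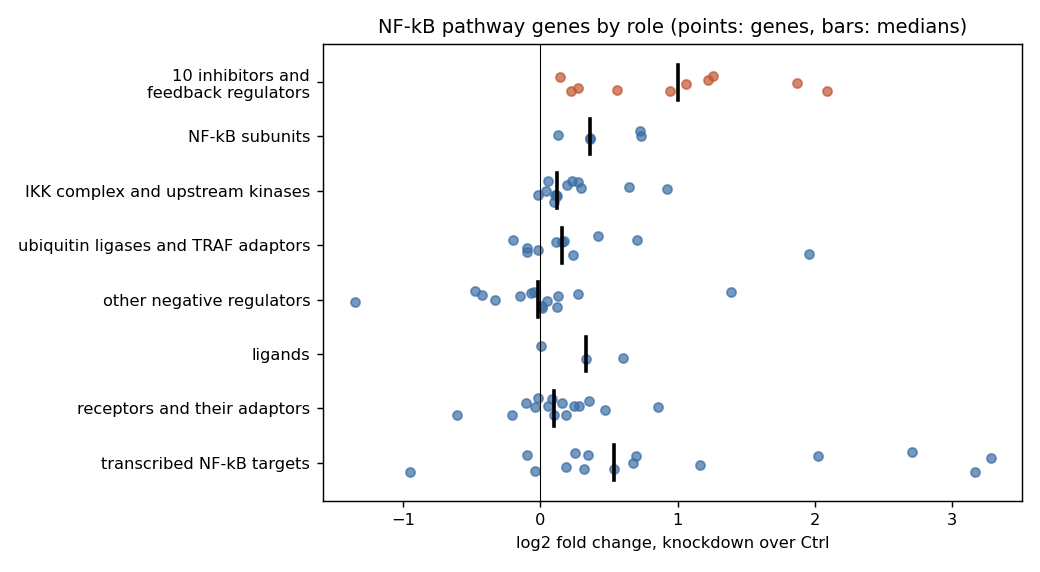
Log2 fold change, knockdown over Ctrl shRNA (x axis), of the 10 inhibitors and feedback regulators and of 76 other NF-κB pathway genes by role (rows). Points are genes and bars are medians. The medians are 1.00 for the 10 genes, 0.54 for the transcribed targets and -0.02 for the other negative regulators. The 10 genes were chosen on this contrast, so nothing is read from the difference.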

How the data were processed

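Gene expression of MLE12 cells was measured by RNA-seq in 6 libraries, grouped by their labels. The counts deposited by the authors are unnormalized whole numbers of reads per Ensembl gene. The FPKM table that the authors deposited holds the same counts per gene length and per a library size set at 0.716 to 1.08 times the total count. Submitters' processing notes name HISAT2 2.0.5, StringTie 1.3.3b, featureCounts 1.5.0-p3 and mm10, without their order, and the extract protocol names a Trinity assembly. The use of strand in counting is not given in the sources used here.

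After filterByExpr and TMM scaling (also used in CPM), groups were compared by the edgeR 4.0.16 quasi-likelihood test (R 4.3.3) without covariates. Adjusted p-values (Benjamini-Hochberg) of edgeR are over the 15307 genes tested with all libraries, and over 15709 without Ctrl shRNA replicate 2. DESeq2 gave no adjusted p-value to some genes with low counts, such as Traf1. Standard errors are the absolute log2 fold change divided by the square root of F. Alternatives were DESeq2 1.42.0, limma 3.58.1 on log2(FPKM + 0.1), on log2(FPKM + 1) and with sample quality weights, other size factors, filters and thresholds, a replicate block and each library left out. DESeq2 without Ctrl shRNA replicate 2 was added after seeing the data. The edgeR test was run on simulated counts with known changes. At the spread of all 6 libraries it recovered only a small part of them, and at a smaller fixed spread it recovered most. Replicate pairs differed beyond sampling noise (chi-square per degree of freedom of 6.13 or more), and counting error is only part of the spread.

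The 10 genes, the lists and the tests were chosen with earlier results of these data known. All 10 genes are named. Each role of the pathway list names up to 6 genes past the threshold with all libraries or without Ctrl shRNA replicate 2, and, where fewer than 2 passed, the 2 with the largest absolute log2 fold change. Likeness used genes of at least 5 CPM on average and log2(CPM + 0.5), and named 3 genes each for Nfkbia, Tnfaip3 and Nfkbiz. Coordinates are those of the deposited table. Of its genes 54409 were in GENCODE M21 of GRCm38, 98.3% of them with identical ends. A degron search in the proteins was planned and is not analysed here. Plots used matplotlib 3.10.9 and pandas 2.3.3 under Python 3.11.15.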

Additional observations from a re-analysis of the deposited data

How the results depend on the processing

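The common biological coefficient of variation was 0.263 with all libraries and 0.102 without Ctrl shRNA replicate 2. Of 160 log2 fold changes of the 10 genes under 16 alternatives, 151 moved by less than 1 SD between replicates, 9 moved by more and 2, both of Tnip2 without Ctrl shRNA replicate 2, were below 0. DESeq2 called 7 of the 10 genes, 14 pathway genes and 258 genes in all higher and 181 lower, and without Ctrl shRNA replicate 2 it called 7, 21, 539 and 371, with 1 pathway gene lower. Limma with sample quality weights called 8, 28, 1327 and 971, with 2 pathway genes lower. Library size only gave 0 of the 10 genes, 1 gene higher and 0 lower. An adjusted p under 0.1 gave 3 pathway genes, 14 genes higher and 3 lower. Without a count filter edgeR called 3 pathway genes higher and 3 genes lower, and limma on either FPKM scale called 3 genes lower and 3 of the 10 genes higher, with the call of Nfkbia lost. With each library left out in turn, edgeR called 0 to 6 of the 10 genes, 0 to 12 pathway genes, 0 to 175 genes higher and 0 to 106 lower, the highest without Ctrl shRNA replicate 2. The cause of these shifts was not tested.

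With the replicate block, edgeR called 0 of the 10 genes, 0 pathway genes and 0 genes higher or lower. Deviations of libraries with the same number correlated at -0.212, -0.156 and 0.021, and 0 of 3 Ctrl libraries correlated best with the knockdown library of its own number, so the numbers were not taken to pair the samples.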

Other observations

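The nearest tested protein-coding gene on each side of the 10 genes was also read, at gaps of 408 to 3357301 bases. Of these 20 neighbors, 13 had a log2 fold change above 0, with a median of 0.05 and a range from -1.04 (Psma6) to 2.21 (Nod2). The value of Psma6 rested on Ctrl shRNA replicate 2, which had 8513 counts, against 3052 and 3572 in the other Ctrl libraries and 2705 to 3439 in knockdown. Nod2, a receptor for bacterial peptidoglycan fragments, lies 8554 bases from Cyld. It had 13, 6 and 2 counts in the Ctrl shRNA libraries and 38, 40 and 33 in the knockdown libraries (edgeR adjusted p = 0.288), with no overlap between the groups, while Cyld itself had a log2 fold change of 0.22. Nod2 was singled out after its values were seen.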
